A study of Mus musculus with 6 samples.

Results

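Proteasome subunit genes are the protein-coding mouse genes whose symbol is Psm, a letter from a to g and a number. The rule found 48 of them among 21887 protein-coding genes in the RefSeq annotation of the mm10 genome (GRCm38.p6), on 16 chromosomes. Accessible chromatin near them was read from a deposited list of 120905 intervals, of which 164 overlapped the span of a member or the 10 kb to either side. The list came from ATAC-seq, in which a transposase cuts open DNA, of liver. All 6 libraries were from wild-type males on a high-fat diet, and 3 came from each of the inbred strains C57BL/6J and 129S1/SvImJ. The labels give no age and do not say whether replicates were separate animals. The list combined both strains and held positions only, so the strains could not be compared, no interval has a strength, and the depth behind each value is unknown. Every value below is a single count with no replicate error, and no test was run.

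The proteasome degrades proteins tagged with ubiquitin. Its 20S core stacks rings of alpha subunits, which form the gate, on rings of beta subunits, some of which cut peptide bonds. The 19S regulatory particle binds ubiquitin chains, removes them and unfolds the substrate with a ring of ATPases. In cells exposed to interferon gamma the inducible beta subunits encoded by Psmb8, Psmb9 and Psmb10 take the places of the catalytic subunits encoded by Psmb5, Psmb6 and Psmb7, which gives the immunoproteasome, a source of peptides for MHC class I.

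The labelled tissue was checked with marker genes. An interval lay within 1 kb of a listed start, or of a span end where no start was listed, in 8 of 12 hepatocyte genes, 5 of 12 macrophage genes, 2 of 6 endothelial genes and 1 of 9 lymphocyte genes, against 61.8% of all protein-coding genes, so the hepatocyte share of 66.7% was near that of any gene. With either end of the gene span the counts were 12, 5, 3 and 3 in the same order, against 61.5%. The median number of intervals in the span plus 10 kb was 4 for hepatocyte genes, 2 for macrophage genes, 6.5 for endothelial genes and 1 for lymphocyte genes, against 3 for all protein-coding genes, with no adjustment for gene length. Adgre1, C1qa and C1qb, which define macrophages, had no interval within 10 kb, whereas Cd68, Marco, Timd4 and Lyz2 had one at the start. The protocol in the labels names the transposed cells by an abbreviation that it does not explain. All libraries also carry an antibody entry, Esrrg, which has no part in ATAC-seq, so reading the intervals as accessible sites rests on the title and protocol. Which cells contributed the member intervals was not tested.

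Promoter windows of 7 genes are printed below. Each runs from 250 bases before to 50 bases after the annotated start, as RefSeq gives it for GRCm38.p6, and is read on the strand of the gene. Capitals mark matches on either strand to 8 short motifs that are described further on. The first 3 are the inducible subunits, Psmb5 and Psmb6 are constitutive counterparts, Psmb3 and Psmd14 had the widest intervals over a start among core and 19S genes, and Psmb10 is also the first gene by symbol with no interval at the start.
Psmb8: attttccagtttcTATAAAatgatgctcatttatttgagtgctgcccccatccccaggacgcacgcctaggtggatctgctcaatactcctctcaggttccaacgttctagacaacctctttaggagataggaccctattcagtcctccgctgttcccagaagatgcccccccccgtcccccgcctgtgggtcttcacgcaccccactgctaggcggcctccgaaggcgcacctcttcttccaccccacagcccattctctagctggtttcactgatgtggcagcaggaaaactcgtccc
Psmb9: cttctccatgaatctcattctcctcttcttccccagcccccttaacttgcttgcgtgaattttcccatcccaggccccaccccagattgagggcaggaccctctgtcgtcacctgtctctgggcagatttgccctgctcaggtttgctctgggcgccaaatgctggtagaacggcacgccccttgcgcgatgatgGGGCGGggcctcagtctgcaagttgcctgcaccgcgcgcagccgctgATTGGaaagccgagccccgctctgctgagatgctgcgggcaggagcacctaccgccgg
Psmb10: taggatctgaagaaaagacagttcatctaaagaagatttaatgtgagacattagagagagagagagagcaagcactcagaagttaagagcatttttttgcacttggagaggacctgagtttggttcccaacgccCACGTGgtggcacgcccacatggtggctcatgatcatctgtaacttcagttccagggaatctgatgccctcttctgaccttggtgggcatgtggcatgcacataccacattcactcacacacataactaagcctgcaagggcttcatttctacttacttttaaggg
Psmb5: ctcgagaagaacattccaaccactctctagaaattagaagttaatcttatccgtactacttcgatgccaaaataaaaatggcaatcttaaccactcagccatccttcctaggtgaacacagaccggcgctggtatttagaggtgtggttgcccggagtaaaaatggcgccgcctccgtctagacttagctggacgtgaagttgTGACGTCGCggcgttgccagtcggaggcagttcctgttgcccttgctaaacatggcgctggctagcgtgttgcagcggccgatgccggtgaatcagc
Psmb6: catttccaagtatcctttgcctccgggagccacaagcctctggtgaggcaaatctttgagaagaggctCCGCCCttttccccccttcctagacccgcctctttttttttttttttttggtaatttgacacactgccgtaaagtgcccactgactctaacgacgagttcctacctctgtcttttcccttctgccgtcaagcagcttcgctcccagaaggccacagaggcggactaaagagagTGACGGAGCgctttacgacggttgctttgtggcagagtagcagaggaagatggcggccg
Psmb3: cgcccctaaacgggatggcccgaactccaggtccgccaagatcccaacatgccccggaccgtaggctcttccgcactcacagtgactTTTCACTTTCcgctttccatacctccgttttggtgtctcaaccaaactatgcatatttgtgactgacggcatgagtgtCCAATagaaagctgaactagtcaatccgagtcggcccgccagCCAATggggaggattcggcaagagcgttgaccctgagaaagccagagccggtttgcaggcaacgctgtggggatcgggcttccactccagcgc
Psmd14: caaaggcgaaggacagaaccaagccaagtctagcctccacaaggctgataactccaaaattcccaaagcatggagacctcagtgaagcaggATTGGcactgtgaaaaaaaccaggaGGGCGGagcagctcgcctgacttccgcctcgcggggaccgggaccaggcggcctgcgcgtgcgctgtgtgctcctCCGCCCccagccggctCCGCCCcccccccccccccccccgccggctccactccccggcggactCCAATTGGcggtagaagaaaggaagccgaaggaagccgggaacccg

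These windows lie at chr17:34197945-34198244 for Psmb8 (plus strand), chr17:34187281-34187580 for Psmb9 (minus), chr8:105938343-105938642 for Psmb10 (minus) and chr14:54617946-54618245 for Psmb5 (minus). Those of Psmb6, Psmb3 and Psmd14, all on the plus strand, lie at chr11:70525107-70525406, chr11:97703184-97703483 and chr2:61711444-61711743. Intervals covered different parts of them. In the Psmb3 window bases 1 to 256 were covered, in Psmb9 bases 72 to 272, in Psmb6 bases 98 to 300, in Psmb5 bases 155 to 300 and in Psmd14 bases 157 to 300. No base of the Psmb8 or Psmb10 window was covered. Psmb3 and Psmd14 were picked for the interval over their start, so that they were covered was given in advance. Psmb7, the counterpart of Psmb10, has no listed start and so no window. These windows therefore do not compare inducible with constitutive genes.

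Nearly every proteasome gene had an accessible interval at its start. An interval overlapped the 1 kb around a listed start, or around a span end where no start was listed, in 45 of 48 members (93.8%), against 61.8% of all 21887 protein-coding genes. For the 40 members with a listed start the count was 37 (92.5%), against 61.7% of 17492 genes. The 8 members with none listed, which are Psma8, Psmb1, Psmb2, Psmb7, Psmc3, Psmd3, Psmd7 and Psmg2, all had an interval within 1 kb of a span end, against 62.2% of 4395 such genes. The exceptions were Psmb10, Psmb11 and Psmd9.

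Every constitutive subunit gene of both particles had an interval within 1 kb of a listed start or of a span end. Of the 14 core genes, the 11 with a listed start all had an interval within 1 kb of it. The 3 with none listed had one at a span end, which need not be the start. Of the 17 regulatory (19S) genes, all 14 with a listed start and the 3 without had one in the same way. An interval lay at the listed start in 2 of the 3 inducible subunit genes. Of the other 14 members, which encode assembly chaperones, activators, an inhibitor and tissue-restricted subunits, 12 had one by the same rule. Among all protein-coding genes the shares were 61.7% with a listed start and 62.2% without. With 3 inducible genes the shares of the classes cannot be separated, and their difference was not tested.

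**Figure D1:**
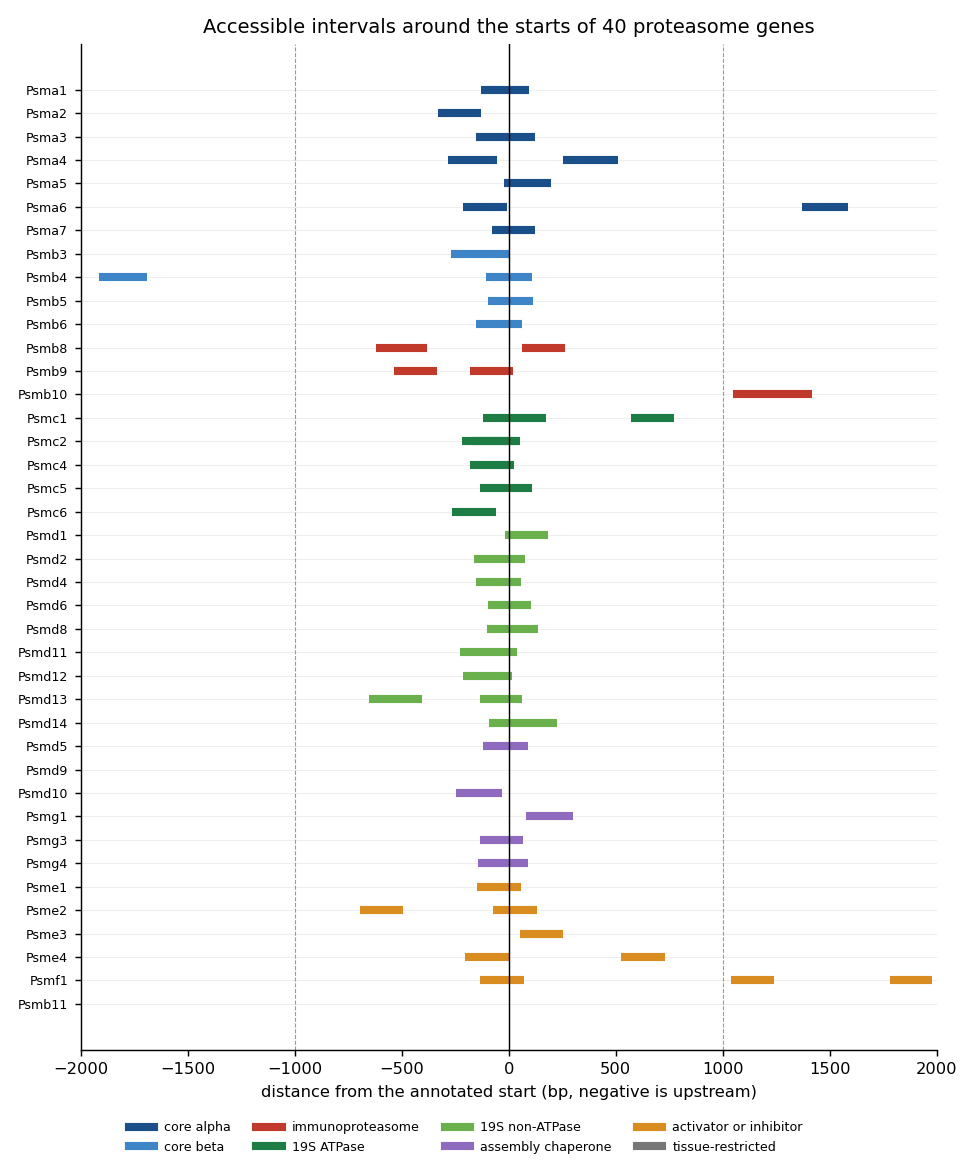
Intervals within 2000 bp of the annotated start of the 40 proteasome genes that have one, 1 row per gene, coloured by class. The horizontal axis is the distance in bp from the start on the gene's strand, measured from the nearer start where 2 are listed, and dashed lines mark 1 kb. Core and 19S genes have a bar at or beside the start, Psmb8 has bars to both sides, Psmb10 has a bar past 1 kb, and the rows of Psmd9 and Psmb11 are empty.

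Among genes of the alpha ring, Psma1, Psma3, Psma5 and Psma7 had an interval that covered the start base, with centres 17 bp upstream, 15 bp upstream, 88 bp downstream and 24 bp downstream. Psma4 had one interval of 230 bp centred 170 bp upstream and another of 259 bp centred 384 bp downstream, and neither covered the start. The interval at Psma2 was centred 231 bp upstream, the farthest among the 37 members with one at a listed start. It lay 26 bp from the start of Mrpl32, a mitochondrial ribosomal protein gene that runs the other way. Psma6 has 2 listed starts, and they differed. The outer one had no interval within 1 kb, and the inner one had an interval of 203 bp centred 111 bp upstream.

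Beta ring genes had intervals close to the start. The centres lay 4 bp from the start of Psmb4, 9 bp from that of Psmb5, 45 bp upstream of Psmb6 and 133 bp upstream of Psmb3, and all 4 covered the start base. Psmb5 and Psmb6 encode catalytic subunits, and their intervals were 211 and 217 bp wide. For Psmb1, Psmb2 and Psmb7, which lack a listed start, intervals of 202, 209 and 257 bp were centred 91, 20 and 36 bp outside a span end. Psmb7, the constitutive counterpart of Psmb10, had 12 intervals in its region, more than any other member, and 8 of them were inside the gene.

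The 3 inducible subunit genes differed from each other. Psmb8 had an interval of 236 bp that ended 383 bp upstream of the start and an interval of 201 bp that began 61 bp downstream of it, so the start itself lay between them. At Psmb9 an interval of 201 bp reached from 179 bp upstream to 21 bp downstream of the start. Its centre lay 79 bp upstream of Psmb9 and 147 bp upstream of Tap1, which encodes a subunit of the peptide transporter of antigen presentation and starts 226 bp away on the opposite strand. A second interval of 201 bp, centred 435 bp upstream of Psmb9, lay 209 bp from the Tap1 start, which was the listed start nearest to it. The nearest interval to the listed start of Psmb10 was 371 bp wide, the widest of the 164 member intervals, and lay inside the gene from 1048 to 1418 bp downstream. Its other intervals were 4322 and 5066 bp upstream, where the nearest listed start was that of Lcat, an enzyme of plasma cholesterol esterification, and 7604 bp downstream. Only 1 start of Psmb10 is listed, and starts inside its span were not examined.

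Interval widths gave a further description. The narrowest width in the list, 201 bp, was that of 46.2% of all intervals and of 31.1% of the 164 member intervals. Among intervals centred within 1 kb of a listed start it was that of 20% of the 45 at members and of 23.5% of the 12741 at all protein-coding genes, so the shares were close. The interval nearest the start of Psmb8 and of Psmb9 had this width. Across the 37 members with one at a listed start the nearest interval had a median width of 212 bp (201 to 323), with 217 bp in 11 core genes and 222 bp in 14 regulatory genes, against 213 bp in 10694 other protein-coding genes with a centre within 1 kb of a listed start. Without intervals of 201 bp, 40 of 48 members (83.3%) had an interval at the start, against 52.2% of all protein-coding genes. The count was then 14 of 14 for core genes, 16 of 17 for regulatory genes without Psmd1, and 1 of 3 for inducible genes, namely Psmb8 through its upstream interval. The regulatory gene Psmd13 also counted only through an upstream interval. It was 249 bp wide and centred 529 bp upstream, 4 bp from the start of the neighbouring gene Sirt3.

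The 6 ATPase genes of the 19S ring each had an interval at the start. Psmc1 had one of 296 bp centred 27 bp downstream and Psmc5 one of 245 bp centred 14 bp upstream. Psmc4 had a single interval in its whole region, 207 bp wide and centred 77 bp upstream. Psmc2 has 2 listed starts with an interval over each, 270 and 207 bp wide. Psmc6 was the ATPase gene whose interval, centred 163 bp upstream, did not cover the start base. The interval of Psmc3, which has no listed start, was centred 13 bp outside a span end.

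Among the 11 other 19S genes, the 9 with a listed start all had it covered. Psmd14, which encodes the deubiquitinase that removes ubiquitin chains, had the widest start interval of the members, at 323 bp, reaching from 94 bp upstream to 228 bp downstream. Psmd1 and Psmd2, the scaffolds of the base, had intervals of 201 and 239 bp centred 82 bp downstream and 45 bp upstream. Psmd4, a ubiquitin receptor, had one centred 49 bp upstream. In the lid, the centres of Psmd6, Psmd8, Psmd11, Psmd12 and Psmd13 lay 3, 19, 95, 98 and 36 bp from the start, and Psmd3 and Psmd7 had intervals of 294 and 210 bp at a span end. Psmd6 had no other interval within 10 kb of its span.

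Assembly chaperones and activators were more mixed. Psmd5, Psmg3 and Psmg4 had intervals over the start, at 15, 33 and 25 bp upstream, while those of Psmg1 and Psmd10 lay beside it, centred 193 bp downstream and 139 bp upstream. Psmd9, a chaperone of the 19S base, had none within 1 kb of its listed start, and its nearest interval was 7679 bp downstream inside the gene. Psme1 and Psme2 encode the interferon-induced activator subunits and lie close together on chromosome 14. Their start intervals were 205 and 208 bp wide, with centres 45 bp upstream and 30 bp downstream. Psme3 had an interval of 201 bp beside the start, centred 152 bp downstream, Psme4 one of 205 bp centred 102 bp upstream, and Psmf1, which encodes the inhibitor PI31, one of 205 bp centred 32 bp upstream.

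The tissue-restricted subunits gave a pair of contrasting values. Psmb11, the thymus subunit, had a single interval in its region, 7324 bp upstream of its start, and that one is the start interval of the nearby gene Psmb5. Psma8, the testis subunit, had an interval of 201 bp centred 130 bp inside a span end and another of 214 bp deeper in the gene.

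Start intervals sat close to the start in most members. The nearest centre was within 250 bp of a listed start in 37 of 40 members (92.5%), against 51.9% of all protein-coding genes with a listed start, and within 50 bp in 47.5%, against 21.2% of other protein-coding genes. An interval covered the start base itself in 29 of 40 members (72.5%), against 38.7%. By class the start base was covered in 13 of 14 regulatory genes, 8 of 11 core genes and 1 of 3 inducible genes. Centres lay upstream in 24 of the 37 members and downstream in 13, and the upstream share of 64.9% was close to the 63.9% of other protein-coding genes.

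Other housekeeping complexes gave similar counts. An interval lay at the start, or at a span end where no start was listed, in 36 of 37 complex I subunit genes (97.3%). For cytosolic ribosomal protein genes the count was 74 of 81 (91.4%), against 61.8% of all protein-coding genes. With listed starts only the counts were 33 of 33 and 55 of 62 (88.7%), against 61.7%. The nearest centre was within 250 bp of the start in 87.9% of 33 complex I genes and 79.0% of 62 ribosomal protein genes with a listed start. Within 50 bp the shares were 33.3% and 24.2%, against 47.5% of proteasome genes. An interval covered the start base in 72.7% of these complex I genes and 58.1% of these ribosomal protein genes. The share was 72.5% for proteasome genes, so it was not particular to them. The differences between these shares and those of the proteasome genes were not tested.

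**Figure D2:**
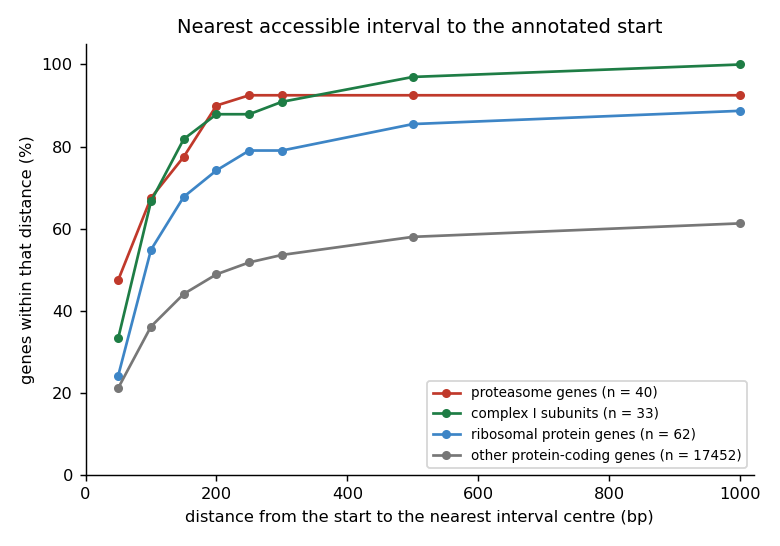
Share of genes in percent (vertical axis) whose nearest interval centre lies within a given distance in bp of a listed start (horizontal axis), for proteasome genes, complex I subunits, cytosolic ribosomal protein genes and other protein-coding genes. The proteasome curve reaches 92.5% at 250 bp and stays there to 1000 bp, while other protein-coding genes reach 51.8% and 61.3% at those distances.

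The number of intervals in and around the genes was that of an ordinary gene. Members had a median of 3 intervals in the span plus 10 kb (quartiles 2 and 4, range 1 to 12), and all protein-coding genes had a median of 3 (quartiles 1 and 5). No member was without an interval, while 83.9% of all protein-coding genes had at least 1. Members were shorter, with a median span of 11.9 kb against 17.2 kb, and had a median of 0.861 intervals per 10 kb of region, against 0.651. Core and regulatory genes had a median of 3 intervals each and inducible genes 4, which corresponds to 0.945, 0.764 and 1.72 per 10 kb. The inducible genes are short (median span 3.26 kb), so their regions are mostly flank.

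**Figure D3:**
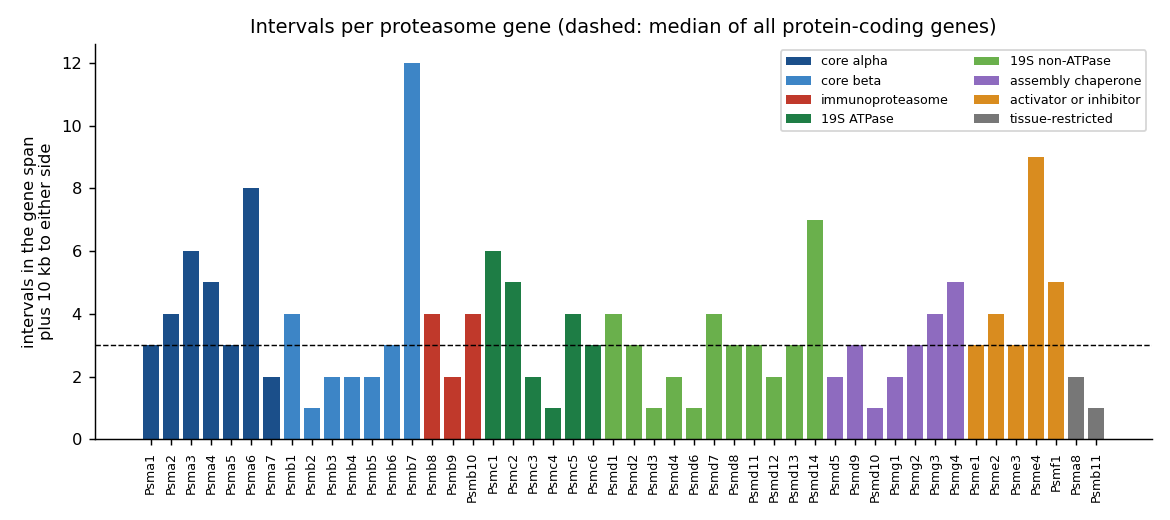
Number of intervals (vertical axis) in the gene span plus 10 kb to either side for each of the 48 proteasome genes, coloured by class, with the median of all protein-coding genes (3) dashed. Psmb7 stands highest with 12, followed by Psme4 with 9, Psma6 with 8 and Psmd14 with 7, and 6 genes have 1.

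The highest counts went to long genes with intervals inside, but other long genes had few. Psme4 spans 109 kb and had 9 intervals, 7 of them inside, Psmd14 spans 88.7 kb with 7, and Psma6 spans 34.2 kb with 8. Psmd1, at 74.7 kb, had 4, Psma8, at 56.2 kb, had 2, Psmd11, at 44.6 kb, had 3 and Psmb2, at 32.1 kb, had 1. The 6 genes with a single interval were Psmb2, Psmb11, Psmc4, Psmd3, Psmd6 and Psmd10, and in 5 of them, all but Psmb11, that interval was at the start or a span end. Of the 168 pairs of a member and an interval, 62 intervals lay inside the gene, 51 upstream, 39 downstream and 16 outside a gene with no listed start. At the edge of the region, the outermost interval counted lay 9852 bp from Psmc5, and the closest left out were 10045 bp from Psmd13 and 10070 bp from Psme1.

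Some intervals belong as much to neighbours. Among the member intervals, 22 were within 1 kb of a listed start that was nearer and belonged to a gene outside the family, and 4 were shared by 2 members (3 by Psme1 and Psme2, 1 by Psmb5 and Psmb11). A protein-coding gene started within 1 kb upstream on the opposite strand in 7 of 40 members (17.5%), against 8.48% of protein-coding genes. The share was 30.3% for complex I subunit genes and 14.5% for cytosolic ribosomal protein genes, so it was not particular to proteasome genes. The partners at members were Mrpl32 at Psma2, Ss18l1 at Psma7, Tap1 at Psmb9, Ftsj3 at Psmc5, Atg4a at Psmd10, Sirt3 at Psmd13 and Rnf31 at Psme2. Their gaps ran from 19 bp at Psma7 to 641 bp at Psme2. The start interval at Psmd10, centred 139 bp upstream of it, was 57 bp from the start of Atg4a. At Psmd13 and Sirt3, which encodes a mitochondrial deacetylase, separate intervals lay 36 bp and 4 bp from the 2 starts.

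CpG content is a property of promoter windows that the choice of members did not use. The ratio of observed to expected CpG was at least 0.6, here called CpG-rich, in 28 of 40 members (70%), against 48.4% of protein-coding genes. It was so in 13 of 14 regulatory genes, 8 of 11 core genes and none of the 3 inducible genes, of which Psmb9 lay just under the threshold, Psmb8 had 0.523 and Psmb10 0.192. All 28 CpG-rich members had an interval at the start, as had 89.9% of CpG-rich protein-coding genes. Among windows under the threshold 9 of 12 members had one, against 35.3% of such genes. The 3 without were Psmb10, Psmb11 (0.165) and Psmd9 (0.589). Composition was read at the outermost start, and for Psma6 that is the start with no interval (0.185), while its inner start, with an interval, had a ratio of 0.697. The part of base composition in these counts was not tested.

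**Figure D4:**
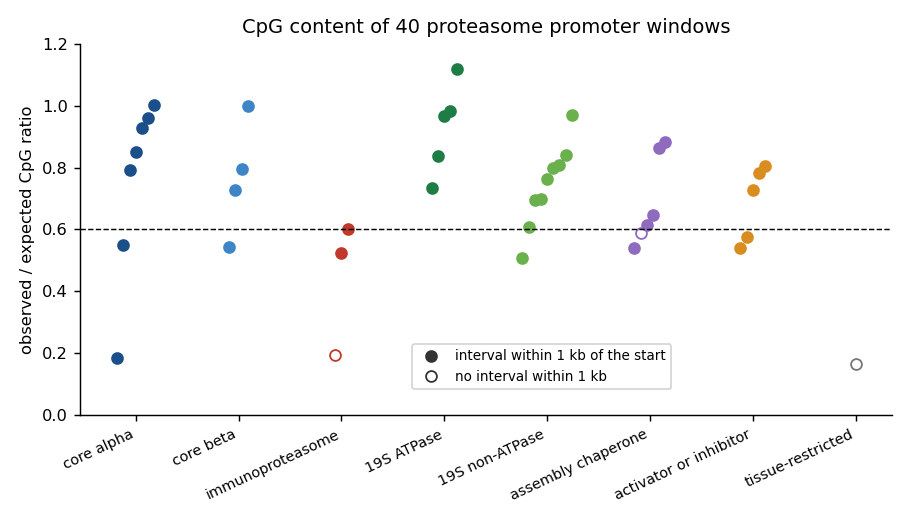
Observed to expected CpG ratio (vertical axis) of the promoter window of each of the 40 proteasome genes with a listed start, by class. Filled points have an interval within 1 kb of a listed start and open points do not, and the dashed line marks 0.6. The open points of Psmb10, Psmb11 and Psmd9 and all 3 inducible genes lie under the line.

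Motifs were searched on both strands in the 40 member windows and, for comparison, in all 17492 protein-coding windows of the same length, and matches of different motifs may overlap. TGACNNNGC is the core of the antioxidant response element through which NFE2L1 is known to activate proteasome genes. It was present in 6 members (15%), against 13.1% of all and 15.3% of CpG-rich windows, so the share was near the background. The 6 were Psmb5, Psmb6, Psmc6, Psmd9, Psmd12 and Psme4. In Psmb5 it lay from 47 to 39 bases before the start and in Psmb6 from 9 to 1 bases before it, in both cases under the start interval. CCAAT, bound by NF-Y, was found in 14 members (35%), against 39.2%, and GGGCGG, bound by SP factors, in 23 (57.5%), against 46.3% of all and 74.1% of CpG-rich windows. Member shares here and below are over all 40 windows, of which 28 are CpG-rich, so they are not matched to the CpG-rich shares. Of the 28 CpG-rich members, 18 had GGGCGG.

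CCGGAAGT, a form of the ETS family motif, was found in 8 members (20%), against 5.28% of all windows and 9.07% of CpG-rich windows. Of these, 5 were regulatory genes (Psmc1, Psmc2, Psmd6, Psmd12 and Psmd13), 3 were Psme3, Psme4 and Psmg3, and none was a core or inducible gene. All 8 were among the 28 CpG-rich members. The interferon-stimulated element was found in 5 members (12.5%), against 3.4%. They were Psmb3, Psmd4, Psmd9, Psme1 and Psmg4, and the list holds the interferon-induced activator gene Psme1 but no inducible catalytic subunit. The motif of nuclear respiratory factor 1 was found in Psma2 and Psmg1 (5%, against 1.33% of all and 2.56% of CpG-rich windows). CACGTG, the E-box of clock factors, was found in Psma4, Psmb10, Psmd9 and Psme3 (10%, against 7.91% of all and 11.5% of CpG-rich windows). TATAAA was found in Psmb4, Psmb8, Psmd1 and Psmd6 (10%, against 13.3% of all and 5.85% of CpG-rich windows). For these last 2 motifs, and for TGACNNNGC and GGGCGG, the direction depended on which windows the 40 members were set against. Of the 28 CpG-rich members, 2 had the motif of nuclear respiratory factor 1, 2 had CACGTG and 2 had TATAAA.

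**Figure D5:**
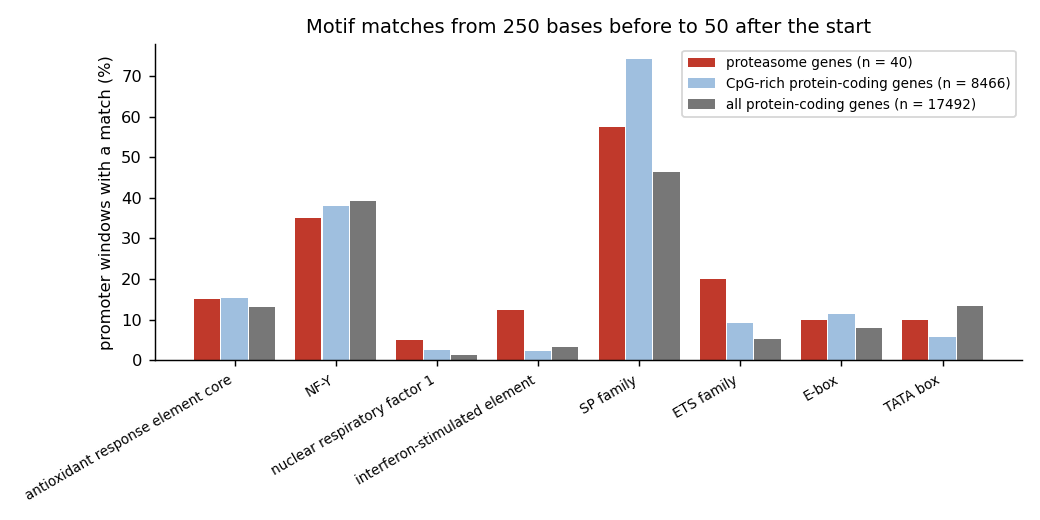
Share of promoter windows in percent (vertical axis) with at least 1 match to each of 8 motifs, for all 40 proteasome genes with a window, CpG-rich protein-coding genes and all protein-coding genes. The proteasome bars stand at 20% for the ETS family and 12.5% for the interferon-stimulated element, against 5.28% and 3.4% of all protein-coding genes.

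In the printed windows, with the start base counted as 0, Psmd14 has CCAAT at 3 places, 1 of them from 159 to 155 bases before the start and 2 that overlap across bases 4 to 11 after it, and GGGCGG at 3. The Psmb3 window has CCAAT at 2 places, from 85 to 81 and from 43 to 39 bases before the start, both under its interval. Psmb9 has CCAAT from 8 to 4 and GGGCGG from 55 to 50 bases before the start, also under its interval. The single match in Psmb8 is TATAAA from 237 to 232 bases before the start and that in Psmb10 is CACGTG from 116 to 111 bases before it, and neither is under an interval.

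Other genes of proteasome function had intervals at the start as often. Of 23 genes that encode remaining subunits, assembly factors, ubiquitin carriers and regulators, 22 had one (95.7%) and the median was 4 intervals. A span end was used where no start was listed, and by that rule the share of all protein-coding genes was 61.8%. The subunit genes Adrm1 and Sem1 had 1 and 6 intervals, with the nearest centred 225 and 3 bp upstream of the start, and Pomp, the maturation factor of the core, had 4, with one centred 150 bp upstream. Nfe2l1, which encodes the transcription factor that raises proteasome genes when the enzyme is inhibited, had 5, one of them centred 73 bp upstream. Its activating protease gene Ddi2 had 4 and its deglycosylase gene Ngly1 had 7. All 8 genes of antigen presentation and its control had an interval at the start or a span end by the same rule. Their median was 6.5 intervals, with 6 for Tap1, 5 for Tap2, 8 for B2m, 11 for the MHC class I transactivator gene Nlrc5 and 7 for Irf1. The 6 at Tap1, which starts beside Psmb9, were the intervals already counted for Psmb8 and Psmb9, so they add no further sites. These lists hold genes of different length, and the members were not tested against them.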

How the data were processed

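The deposited file is 1 list of interval positions made by the authors from 6 libraries (3 C57BL/6J, 3 129S1/SvImJ), whose 3 columns give the chromosome and both edges of each interval without any score or signal. The submitters' processing notes name fastp, Bowtie2, HOMER and mm10; the sources used here give neither the peak threshold, which decides which weak sites are present, nor the shift of read ends or the way libraries were combined. Starts were converted to 1-based positions. Gene spans, listed starts and promoter windows came from RefSeq tables of GRCm38.p6, the mm10 build, and listed starts matched 40 of 48 members. An overlap of at least 1 bp counted. The planned strain comparison was not run, since no column names a library. Members, classes and lists were chosen with earlier results of these data known. All members were named, and some genes of the fixed lists are not reported here. Promoters were printed for the inducible genes and their listed counterparts, the core and 19S genes with the widest interval over the start and the first gene without one. The CpG threshold of 0.6 was set after the data were seen. Overlap counting was checked against direct counts. Python 3.11.15, pandas 2.3.3, numpy 2.4.6 and matplotlib 3.10.9 were used.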

Additional observations from a re-analysis of the deposited data

How the results depend on the processing

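No paired analysis was possible because the list holds no value per library, and leaving out a replicate could not be done for the same reason. The count of 45 of 48 members with an interval at the start was 45 with a window of 500 bp, 46 with 5 kb, where Psmb10 was added, 45 by interval centres, 43 with either span end and 40 without intervals of 201 bp, and it was 37 of 40 with listed starts only, an alternative chosen after seeing the data. For core and regulatory genes these counts stayed within 1.5 times of 14 and 17. For inducible genes the count of 2 became 1 without intervals of 201 bp, 3 with 5 kb and 4 of 5 with Psme1 and Psme2 added. The medians depended on the region. Without flanks they were 1 for all members, core, regulatory and inducible genes, and with 50 kb they were 9, 11, 9 and 10, against 1 and 8 for all protein-coding genes. Only intervals away from other protein-coding genes gave 1.5 for all members, 2 for core, 1 for regulatory and 1 for inducible genes, by the construction of that count. Without intervals of 201 bp the inducible median of 4 became 2. With 3 inducible genes 1 gene decides each of these values. Positions without depth cannot show whether a start with no interval is closed.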
